A study of Macaca mulatta with 32 samples.

Results

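Circular RNA (circRNA) was compared between the cerebellar cortex (CB) and the hippocampus of the rhesus macaque, the hippocampus being represented by its CA1 field and its dentate gyrus (DG). The comparison used the 4 CB libraries and the 8 libraries of CA1 and DG, chosen by region, 12 of the 32 libraries of the study, and the 20 neocortical libraries entered no test. The animals were 8 healthy, socially housed macaques, 2 females and 2 males of 10 years and 2 females and 2 males of 20 years. The RNA of the 2 animals of each sex and age was mixed before sequencing, so each region had 4 pools: 10F, 10M, 20F and 20M, named by age and sex. All animals were untreated and the same 4 pools supplied CB, CA1 and DG. Total RNA was depleted of polyadenylated and ribosomal RNA and digested with RNase R, an exonuclease that degrades linear RNA. No strain beyond the species was given. Tissue pieces were dissected from the cerebellar cortex and the hippocampus without sorting of cells, so fewer cells of a type and less RNA per cell cannot be told apart.

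A circRNA forms when a downstream splice donor joins an upstream splice acceptor, and the reads that cross this back-splice junction count the circle and not the linear transcript. CircRNAs have no free end, resist exonucleases and accumulate in neurons, where many come from genes of the synapse. The cerebellar cortex is dominated by small granule cells, whose parallel fibres contact the Purkinje cells, the output neurons of the cortex. CA1 holds pyramidal neurons and the dentate gyrus a different class of granule cell, both excitatory cells of the hippocampal circuit.

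Levels are given in TPM, the authors' name for their unit, and each equals the back-splice reads of a circRNA multiplied by a fixed factor for that library. The 12 libraries held between 18813 and 811958 back-splice reads, and their values summed to between 107695.16 and 352188.37 TPM. The shallowest library was CB_10F, where 1 read was worth 18.7 TPM and the smallest value above 0 was 37.44 TPM. The deposited scale of CB_10F was also 1.86 times the scale that size factors from the 229 circRNAs found in all 12 libraries would give, and that of DG_20F was 0.51 times. The deepest were CA1_20M and DG_20M, both from the 20M pool. A value of 0 in CB_10F therefore allows more than a 0 elsewhere, and counts are given below also without these libraries. Limits set by a read count cover counting error only, because PCR duplicates were not marked. Of the 4999 circRNAs tested, 3380 (67.6%) were listed at 0 in CB_10F.

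A difference between CB and hippocampus was found for 210 of the 4999 circRNAs tested, and more were higher in CB than lower. Among the 1694 circRNAs above 0 in at least 8 of the 12 libraries, 37 were higher and 53 lower. That filter removes every circRNA found in no hippocampal library, because CB has only 4 libraries. It keeps circRNAs found in all 8 hippocampal libraries and in no CB library. It left 110 of the 210 calls untested, so it cannot show which direction prevails. By limma on log2(TPM + 5.245), with Benjamini-Hochberg adjustment and an adjusted p under 0.05, 139 circRNAs were higher in CB (2.78% of those tested) and 71 were lower (1.42%). The median difference over all circRNAs tested was 0.17 on the log2 scale. The 139 came from 99 named host genes and rose by 1.68 to 6.81 on the log2 scale, with a median of 2.87. The 71 came from 52 named host genes and differed by -1.89 to -6.42, with a median of -3.07. With the circRNAs that were listed at 0 throughout one group set to a lower bound, these medians were 2.82 and -2.89. All 4 CB libraries lay above all 8 hippocampal libraries for 142 circRNAs (2.84% of those tested), among them 107 of the 139. All 4 lay below all 8 for 46 (0.920%), among them 33 of the 71. In each of the 4 pools CB was above both CA1 and DG for 122 of the 139, and below both for 40 of the 71.

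Presence in the libraries is given for each direction as a description. Of the 139 circRNAs higher in CB, 128 were found in all 4 CB libraries and 41 were found in no hippocampal library. Of the 71 lower ones, 45 were found in all 8 hippocampal libraries and 17 in no CB library. Of the 71, 60 (84.5%) were listed at 0 in CB_10F, and without CB_10F 41 circRNAs were lower and 119 higher. Without CB_10M, 45 were lower and 76 higher, without CB_20F 43 and 124, without CB_20M 47 and 93, without CA1_10F 51 and 92, and without DG_20F 70 and 86. Without CA1_20M and DG_20M together, 44 were lower and 76 higher. CB against DG alone gave 47 higher and 26 lower, and CB against CA1 alone 55 and 53, each with 4 against 4 libraries. When every value under 37.44 TPM was raised to that limit of CB_10F in all libraries, 44 were higher and 11 lower.

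**Figure D1:**
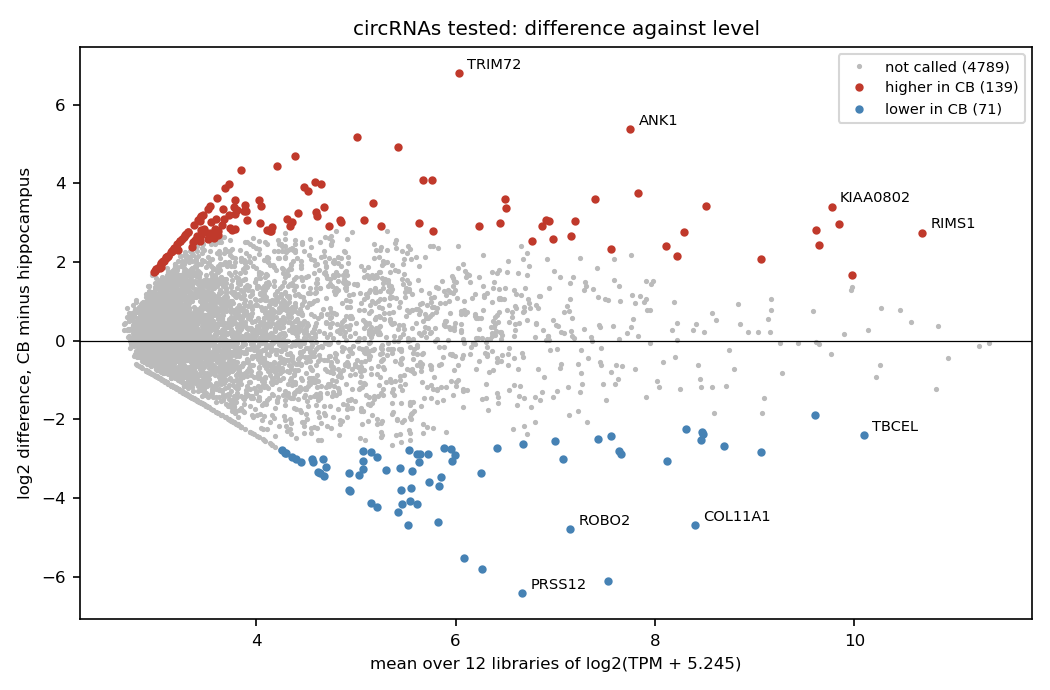
Each point is 1 of the 4999 circRNAs tested, with its mean level over the 12 libraries on the horizontal axis as log2(TPM + 5.245) and the log2 difference of CB minus hippocampus on the vertical axis. The 139 circRNAs called higher in CB (red) and the 71 called lower (blue) lie on both sides of 0, with TRIM72 at 6.81 and PRSS12 at -6.42 as the extremes. A circRNA had to be above 0 in at least 4 of the 12 libraries to be tested.

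Divergent primers, which point away from each other on the linear transcript and amplify only across a back-splice junction, were designed by the study for some of the circRNAs described below. The pairs for 3 circRNAs higher in CB and for 1 that the study listed for DG are shown, because they mark the junctions whose levels follow, in lower case from 5′ to 3′ with no part in capitals. The study picked these circRNAs on the same libraries, so their direction here is not independent evidence.
TRIM72 chr20:29319558-29319983 forward: gacaagccgcagactgagt
TRIM72 chr20:29319558-29319983 reverse: cctccacttccaccaactgat
RIMS1 chr4:68575807-68582219 forward: tcagtgatgtgtccgccatt
RIMS1 chr4:68575807-68582219 reverse: ctgtcttgttcgctcctcca
TNRC6A chr20:23227042-23246911 forward: aaagaaggaagctgctcaaa
TNRC6A chr20:23227042-23246911 reverse: tcttcttcttgcactaaatccc
PPFIA2 chr11:78405303-78425565 forward: gcgactgagggtttctttag
PPFIA2 chr11:78405303-78425565 reverse: gagttcagagatttcttcttcc

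The largest rise belonged to an exonic circRNA of TRIM72 (chr20:29319558-29319983, plus strand, in the build of the table, which is not named). TRIM72 is known as a ubiquitin ligase of membrane repair in muscle. Its level was 2621 TPM in CB_10F, 1677 in CB_10M, 1071 in CB_20F and 1123 in CB_20M. In the hippocampus it ran from 0 to 27.1 TPM with a median of 11.8. The groups did not overlap, and the difference was 6.81 on the log2 scale (SE 0.88, limma adjusted p = 1.8e-11). In the 20 neocortical libraries the median was 10.1 TPM and the highest 30.9.

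An intronic circRNA of ANK1 (chr8:42216486-42217006, minus strand), which the study also picked on these libraries, came second. Ankyrin-1 ties membrane proteins to the spectrin skeleton. It measured 5092, 2227, 1401 and 2836 TPM in CB_10F, CB_10M, CB_20F and CB_20M, against a hippocampal range of 0 to 291 with a median of 63.6. Every CB library was above every hippocampal library, with a difference of 5.39 (SE 0.73, limma adjusted p = 2.8e-10). The highest of the 20 neocortical libraries reached 458 TPM. ANK1 was the only one of the 10 ankyrin and spectrin genes with a call, 1 of 13 circRNAs tested from this family, and both tested circRNAs of ANK2 had values of -2.35 and -2.23 that did not pass (limma adjusted p = 0.121 and 0.146).

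KIAA0802, called MTCL1 in the gene names supplied and known to crosslink microtubules, had the second most abundant circRNA of CB (chr18:5660775-5662824, minus strand). Its 4 CB libraries held 7395, 4732, 2489 and 3623 TPM, in the order 10F, 10M, 20F and 20M, and the hippocampal libraries 127 to 1259 with a median of 401. The difference was 3.41 (SE 0.53, limma adjusted p = 1.1e-07). Here the neocortex was not low: its median was 1479 TPM and its highest library 3438, which overlapped CB.

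The chromatin remodelers SMARCA5, an ATPase of the ISWI family, and CHD7, a chromodomain helicase, each had an exonic circRNA that was higher in CB. The SMARCA5 circle (chr5:135960595-135961059, plus strand) measured 3351, 2768, 2859 and 6485 TPM in CB against 0 to 1797 in the hippocampus, median 975. Its difference was 2.97 (SE 0.52, limma adjusted p = 6.3e-06), and the call did not pass with the circRNA's own spread in place of the moderated one (0.343), with eBayes without a trend (0.113) or at the common limit of 37.44 TPM (0.367). The CHD7 circle (chr8:63376335-63382718, plus strand) measured 1966, 2078, 1463 and 1660 TPM against 59.5 to 253, median 184. Its difference was 3.42 (SE 0.66, limma adjusted p = 6.2e-05). Neither overlapped between CB and hippocampus, and both were above CA1 and DG in 4 of 4 pools.

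Other leading circRNAs higher in CB came from PIK3R3, PLA2R1, ZNF521 and CTBP2. PIK3R3 (a regulatory subunit of phosphoinositide 3-kinase, chr1:49013324-49017086) had 327 to 624 TPM in CB and a hippocampal median of 6.01 with a highest value of 115. PLA2R1 (a phospholipase A2 receptor, chr12:23512262-23513213) had 123 to 374 TPM in CB and was found in 1 of 8 hippocampal libraries, at 50.9 TPM. The intronic circRNA of ZNF521 (a zinc finger transcription factor, chr18:18330541-18337088) had 318, 101, 22.8 and 132 TPM in CB and was found in no hippocampal library, at least 15.5-fold higher in CB when the hippocampus is set to a floor of 3 reads per library. CTBP2, a transcriptional corepressor whose gene also encodes the ribbon synapse protein RIBEYE, overlapped: the lowest CB library held 750 TPM and the highest hippocampal library 808. Their fitted differences were 4.92, 4.70, 4.35 and 3.77, with limma adjusted p between 1.9e-05 and 0.00021. The CTBP2 call was lost with its own spread, without the 10F pool, and at the common limit of 37.44 TPM.

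**Figure D2:**
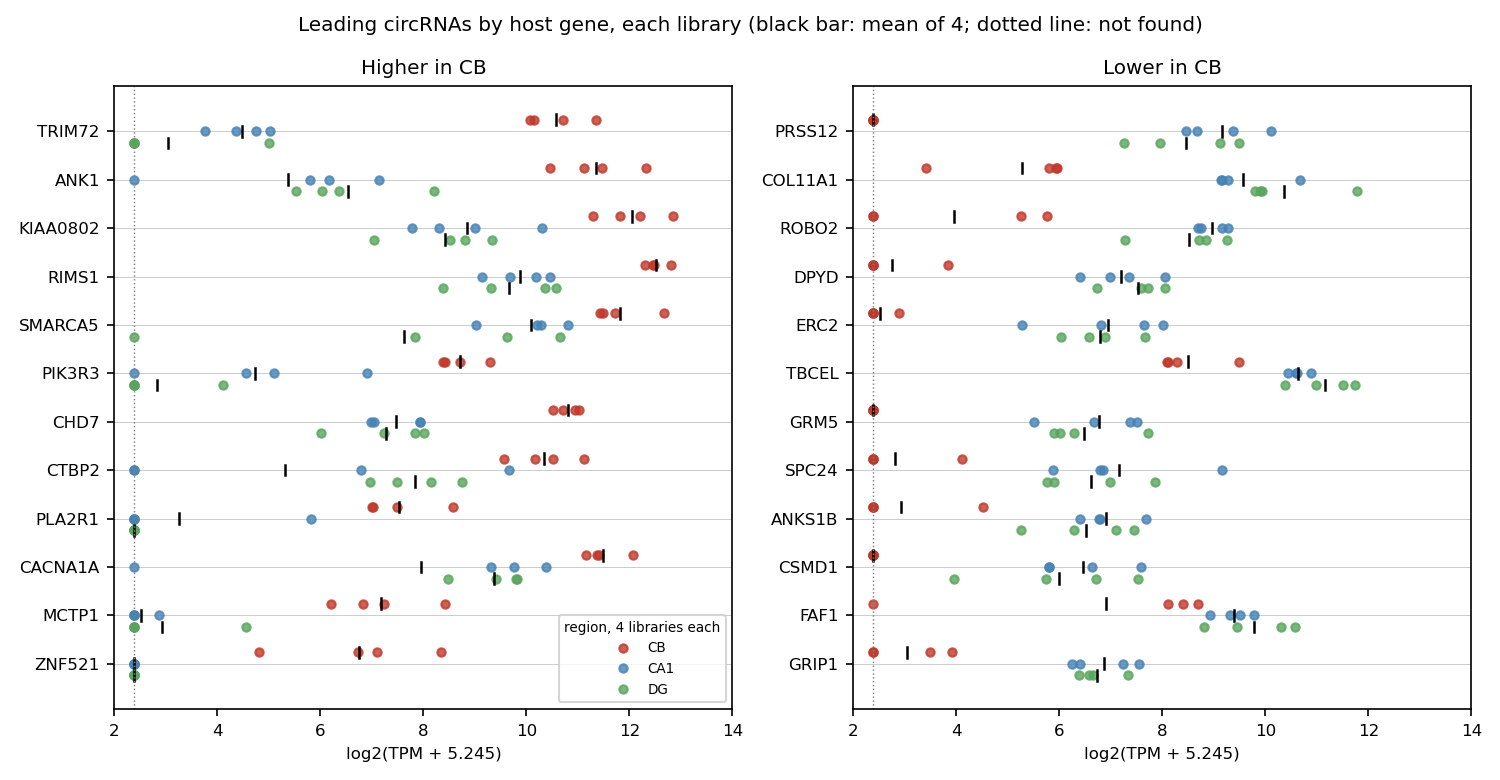
Points show log2(TPM + 5.245) in each of the 12 libraries for the 12 leading circRNAs in each direction, named by host gene, with CB in red, CA1 in blue and DG in green. Black bars are means of 4 libraries and the dotted line marks a circRNA listed at 0. TRIM72, ANK1 and RIMS1 show 4 CB points to the right of all others, CTBP2 overlaps, and PRSS12, GRM5 and CSMD1 have all 4 CB points on the dotted line.

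RIMS1 encodes a scaffold of the presynaptic active zone that binds Rab3 and calcium channels, and it gave CB its most abundant circRNA. That exonic circle (chr4:68575830-68582219, plus strand) held 5055, 5699, 5588 and 7165 TPM in the CB libraries, with a mean of 5876 ± 904 (SD, n = 4), and 327 to 1510 in the hippocampus, with a mean of 964 ± 439 (SD, n = 8). The difference was 2.75 (SE 0.45, limma adjusted p = 5.4e-07), and it took 2.33% of the back-splice reads in CB against 0.444% in the hippocampus. A second circle with the same start (chr4:68575830-68607531) had 3164, 2286, 1704 and 3021 TPM in CB against 87.8 to 1411, a difference of 2.44 (limma adjusted p = 0.00106), which did not pass with its own spread (0.0709), without the 20M pool (0.0562) or at the common limit of 37.44 TPM (0.0981). The circle whose primers are shown above starts just upstream (chr4:68575807-68582219), is annotated as intronic and was much rarer, with 56.2 to 188 TPM in CB against 0 to 48.8, a difference of 3.39 (limma adjusted p = 0.0127). Its call did not pass without CB_10M or without CB_20M. Of the 10 tested circRNAs of RIMS1, 5 were called higher and the other 5 had positive differences of 1.37 to 2.55 that did not pass. These circRNAs share junction sites and are not independent of each other. Summed over its 56 circRNAs in the table, RIMS1 held 11513, 11584, 9043 and 13248 TPM in CB against 817 to 4060 in the hippocampus.

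CACNA1A encodes the pore of the P/Q-type calcium channel, which triggers release at most central synapses and is abundant in Purkinje and granule cells. Its main circRNA (chr19:13015989-13017610, minus strand) had 4268, 2701, 2276 and 2629 TPM in CB and 0 to 1335 in the hippocampus, median 770. The difference was 2.82 (SE 0.55, limma adjusted p = 6.4e-05), and the call did not pass without CB_10F or with its own spread. The single hippocampal 0 was in CA1_20M, the deepest library. A rarer CACNA1A circle (chr19:12990227-12990981) had 90.2 to 318 TPM in CB and at most 18.2 in the hippocampus, a difference of 4.04 (limma adjusted p = 0.00131). The remaining 4 tested had values of 0.79 to 1.76 and did not pass.

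Hosts with several called circRNAs were examined as a group chosen after their values were seen. Beside RIMS1 and CACNA1A they were ATP9B with 5 of 26 tested circRNAs higher, CADPS2 with 4 of 6, TIAM1 with 3 of 9 and MCTP1 with 2 of 5, and in the other direction C6ORF142 with 2 of 5 and TMEFF1 with 2 of 5 lower. No host gene had circRNAs called in both directions. In ATP9B, a phospholipid flippase, the circle chr18:72503628-72524151 had 580, 430, 464 and 426 TPM in CB against 0 to 150 in the hippocampus, a difference of 3.61 (limma adjusted p = 0.0024). The most abundant ATP9B circle, chr18:72438949-72465599, held 1317 to 2883 TPM in CB against 616 to 1856, a difference of 0.47 that did not pass (limma adjusted p = 0.632). Whether these circles of ATP9B differed from each other was not tested. MCTP1, a membrane protein with C2 domains, had an intronic circle (chr6:91498485-91505812) with 337, 108, 68.4 and 145 TPM in CB against at most 18.2 (difference 4.45, limma adjusted p = 0.00021). TMEFF1, a transmembrane protein with follistatin domains, had 41.3 to 74.9 TPM in CB against 88.3 to 844 at chr15:35695572-35713163 (difference -2.42, limma adjusted p = 0.0372).

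**Figure D3:**
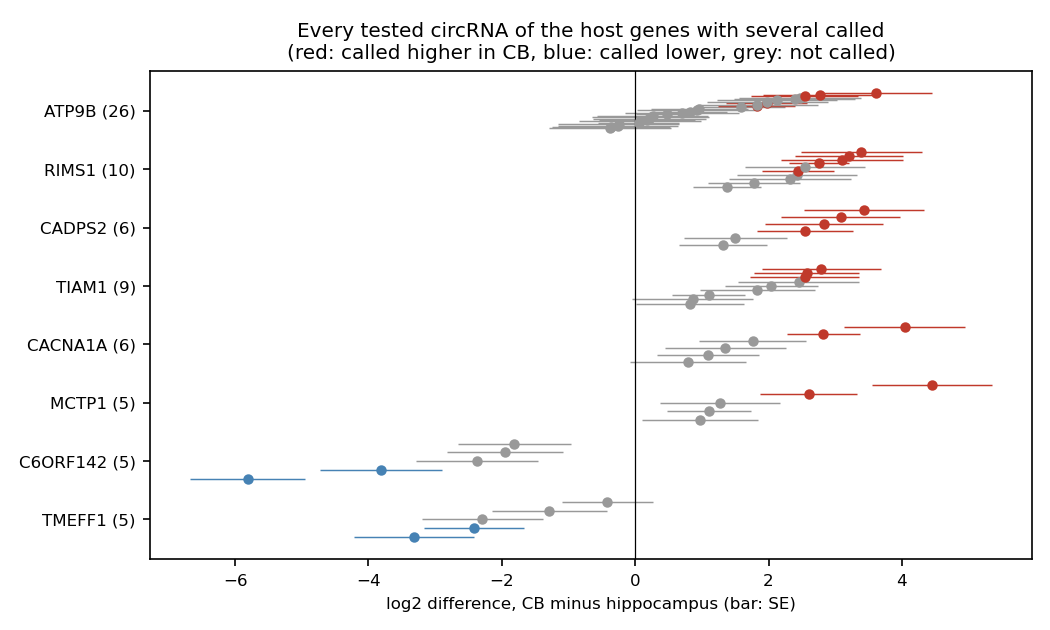
Each point is a tested circRNA of a host gene with at least 2 calls in 1 direction, with the log2 difference of CB minus hippocampus on the horizontal axis, bars of 1 SE, and the number tested in parentheses. All 10 points of RIMS1, 6 of CADPS2, 9 of TIAM1, 6 of CACNA1A and 5 of MCTP1 lie right of 0, all 5 of TMEFF1 and 5 of C6ORF142 lie left of it, and the 26 of ATP9B reach from -0.38 to 3.61.

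Among the lower circRNAs of named genes, the smallest p belonged to PRSS12 (chr5:111177622-111184194, minus strand). PRSS12 encodes neurotrypsin, a secreted protease of the synapse. It was listed at 0 in all 4 CB libraries and at 148 to 1107 TPM in all 8 hippocampal libraries, median 480. This is at least 29.6-fold lower in CB when CB is set to a floor of 3 reads per library (limma adjusted p = 2.1e-11). The neocortical median was 75.1 TPM.

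COL11A1, a fibrillar collagen chain, had a circRNA (chr1:105970153-105980172) with 56.2, 57.1, 5.43 and 50.6 TPM in CB and 561 to 3510 in the hippocampus, median 918. The difference was -4.68 (SE 0.67, limma adjusted p = 2.7e-09). ROBO2, a receptor for the guidance cue Slit, had a circRNA (chr2:1573171-1573497) with 0, 0, 48.9 and 33.0 TPM in CB and 150 to 611 in the hippocampus, a difference of -4.80 (SE 0.79, limma adjusted p = 6.6e-07). DPYD, an enzyme of pyrimidine breakdown, had 1 of 6 tested circRNAs called (chr1:100724539-100744428). It was found in 1 of 4 CB libraries, at 9.02 TPM, and held 79.6 to 262 TPM in the hippocampus, a difference of -4.61 (SE 0.89, limma adjusted p = 6.2e-05). None of these overlapped between the groups.

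ERC2, an active zone scaffold, had a circRNA (chr2:80422177-80484194) with 2.17 TPM in CB_20F, 0 in the other CB libraries, and 33.5 to 254 in the hippocampus (difference -4.35, limma adjusted p = 0.00032). GRM5, the group I metabotropic glutamate receptor of pyramidal neurons, had a circRNA (chr14:87045012-87045261) listed at 0 in all CB libraries and at 40.3 to 206 TPM in the hippocampus, at least 6.16-fold lower in CB (limma adjusted p = 0.0006). GRIP1, which binds AMPA receptors, held 0 to 9.78 TPM in CB against 71.2 to 182 (difference -3.75), and ANKS1B, a postsynaptic density protein, 0 to 17.6 against 32.9 to 200 (difference -3.79). CSMD1, a large membrane protein that restrains complement, was at 0 in CB and at 10.3 to 186 TPM in the hippocampus, at least 5.11-fold lower. The limma adjusted p of these last 3 lay between 0.00303 and 0.00307.

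TBCEL, related to tubulin-folding cofactors, differed in that its circRNA (chr14:119447083-119449067) was abundant everywhere. It held 711, 305, 272 and 268 TPM in CB and 1333 to 3429 in the hippocampus, median 1729, with no overlap (difference -2.40, SE 0.50, limma adjusted p = 0.00036). FAF1, a Fas-associated factor, held 0, 335, 270 and 411 TPM in CB against 446 to 1522 (difference -2.68, limma adjusted p = 0.00306). Its only 0 was in CB_10F, and without CB_10F the call did not pass. SPC24, a kinetochore subunit, was found only in CB_10M among the CB libraries, at 12 TPM, against 49.3 to 564 in the hippocampus (difference -4.08, limma adjusted p = 0.00087).

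C6ORF142, called MLIP in the gene names supplied and known as a lamin-interacting protein of muscle, was lower in CB as a host gene. Its most abundant tested circle (chr4:53822249-53875750) was listed at 0 in all 4 CB libraries and reached 2037 TPM in the hippocampus, median 449, but was also at 0 in DG_20M. The neocortical median was 2131 TPM. A second circle with the same start (chr4:53822249-53842943) was at 0 in CB and at 39.0 to 269 TPM in the hippocampus, without overlap. The difference was called for both (limma adjusted p = 1.2e-08 and 0.00307).

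Circles outside annotated genes were among those with the largest differences. By p the leading circRNA of the whole comparison was intergenic, at chr6:146707952-146711102 on the minus strand. It held 0, 12, 10.9 and 4.40 TPM in CB and 190 to 1321 in the hippocampus, median 943, a difference of -6.12 (SE 0.76, limma adjusted p = 2.9e-12). A second lower one, chr5:140041447-140041677 on the plus strand, was found in CB_20F alone among CB libraries, at 13.0 TPM, against 37.7 to 341 in the hippocampus (difference -4.15, limma adjusted p = 0.00065). In the other direction, chr6:19994802-20035223 on the minus strand had 318, 379, 272 and 433 TPM in CB and at most 40.6 in the hippocampus (difference 5.17, limma adjusted p = 6.3e-06). The circle at chr10:556859-574039 on the plus strand had 48.4 to 93.6 TPM in CB and was found in no hippocampal library, at least 8.04-fold higher in CB (limma adjusted p = 0.00106). Of the calls, 23 of 139 higher and 17 of 71 lower were intergenic (16.5% and 23.9%), where 14.4% of the circRNAs tested were.

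When TPM was summed over all circRNAs of a host gene, 109 of 3046 host genes held more circRNA in CB (3.58%) and 63 held less (2.07%), with a median difference of 0.23 over all. With every library rescaled to the same total, 86 held more and 82 less. Among host genes above 0 in at least 8 of the 12 libraries 36 held more and 52 less, a filter that removes hosts found only in CB. Without CB_10F 70 held more, without CB_10M 60 and without CB_20M 69. The 5 leading hosts with more were TRIM72, ANK1, KIAA0802, RIMS1 and CHD7, at 6.82, 5.10, 3.43, 2.36 and 3.45 on the log2 scale. The 5 leading hosts with less were C6ORF142, PRSS12, COL11A1, DPYD and ERC2, at -6.32, -6.50, -4.68, -5.50 and -5.09. The limma adjusted p of these 10 ran from 3.8e-18 to 5.0e-08. Except for RIMS1, C6ORF142, DPYD and ERC2, each had 1 or 2 tested circRNAs, so the sum mostly repeats the circle already described.

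The tissue labels were compared with the circRNAs of marker genes of each cell type, which measure circles and not the marker's messenger RNA. Counts for these and the later gene lists stand beside 2.78% higher and 1.42% lower over all circRNAs tested, and no list was tested as a set. The lists were chosen with earlier results of these data known, so their counts are a description and not independent evidence on the labels. For cerebellar granule cells, 8 of 19 tested circRNAs were higher in CB and 0 lower, with a median difference of 2.04, and all 19 differences were positive. The 19 came from 5 genes. TIAM1 gave 9 of them, with 3 of the calls, and CADPS2 gave 6, with 4 of the calls. Circles of the same gene are not independent of each other. Their summed level was 1015 to 2827 TPM in CB and 131 to 523 in the hippocampus. In CB, TIAM1 gave 621 to 1741 TPM of it and CADPS2 242 to 674. TIAM1 was not confined to CB, with 179 to 523 TPM in DG beside a neocortical median of 46.5. The called hosts were CADPS2, which primes dense-core vesicles, TIAM1, an activator of Rac, and GRM4, the metabotropic glutamate receptor of parallel fibre terminals. GRM4 had an intronic circle (chr4:33790111-33834450) with 56.2, 69.1, 33.7 and 96.7 TPM in CB and none found in the hippocampus, at least 6.91-fold higher in CB (limma adjusted p = 0.0024). The GRM4 call did not pass without the 20M pool (0.0581). A CADPS2 circle (chr3:159856896-159872818) had 206, 49.6, 89.1 and 33.0 TPM in CB against at most 21.8 (difference 3.43, limma adjusted p = 0.0099), a call that did not pass without CB_10F. Many defining genes could not be read this way, since 10 of the 20 markers had a circRNA in the table, ZIC1 was at 0 in the 12 libraries, and GABRA6 and FAT2 had none tested. CADPS2 also counts among the active zone scaffolds.

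Purkinje markers gave 5 tested circRNAs, 1 of them higher, with a median of 1.62. That one came from INPP5A, an inositol phosphatase (chr9:132358593-132366012), with 786, 585, 433 and 301 TPM in CB against 0 to 291, a difference of 3.05 (limma adjusted p = 0.011). The call did not pass without CB_10F or without CB_10M. As a host sum, chosen after its values were seen, PLCB4, a phospholipase C of Purkinje cells, held 7.52 to 74.9 TPM in CB against at most 12.7 in the hippocampus, with overlap (limma adjusted p = 0.036). The summed level of the list was 477 to 973 TPM in CB and 60.9 to 331 in the hippocampus, of which INPP5A gave 343 to 786 in CB. PCP2, CALB1 and 9 other markers had no circRNA in the table.

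Of 4 tested circRNAs of pyramidal neuron markers, 1 was lower in CB (GRM5) and 0 higher, with a median of -2.25. Their summed level was 0, 4.51, 0 and 15.4 TPM in CB and 125 to 382 in the hippocampus. CAMK2A, the calcium- and calmodulin-dependent kinase of forebrain excitatory synapses, passed as a host sum, at 0 in all CB libraries and up to 93.1 TPM in the hippocampus, where it was also at 0 in CA1_20M (limma adjusted p = 0.0318). None of the 4 tested circRNAs of dentate granule cell markers passed, their median was -1.63, and their summed level was 30.4 to 44.0 TPM in CB against 184 to 938. PPFIA2, a liprin of the active zone that is counted in that list, had 37.4, 31.6, 18.5 and 35.2 TPM in CB and 89.9 to 692 in the hippocampus at the junction shown above. That difference was -2.38 and did not pass (limma adjusted p = 0.0797), although the groups did not overlap. It passed with the pool as a block (limma adjusted p = 0.0432) and with every library rescaled to the same total (0.0229). Summed over its circRNAs PPFIA2 passed (limma adjusted p = 0.0026), with 23.9 to 37.4 TPM in CB and 114 to 824 in the hippocampus. PPFIA2 therefore gave most of the summed level of the dentate list.

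No circRNA of a glial marker was called. The 5 tested oligodendrocyte circRNAs had no call and a median of 0.77, and their summed level of 131 to 180 TPM in CB lay within the 46.0 to 229 of the hippocampus. Astrocyte and Bergmann glia markers had no tested circRNA and were at 0 in every CB library, with at most 27.3 TPM in the hippocampus. Microglia markers had none tested and at most 10.5 TPM in CB and 47.3 in the hippocampus. At these levels glial cells cannot be compared through their circRNAs.

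**Figure D4:**
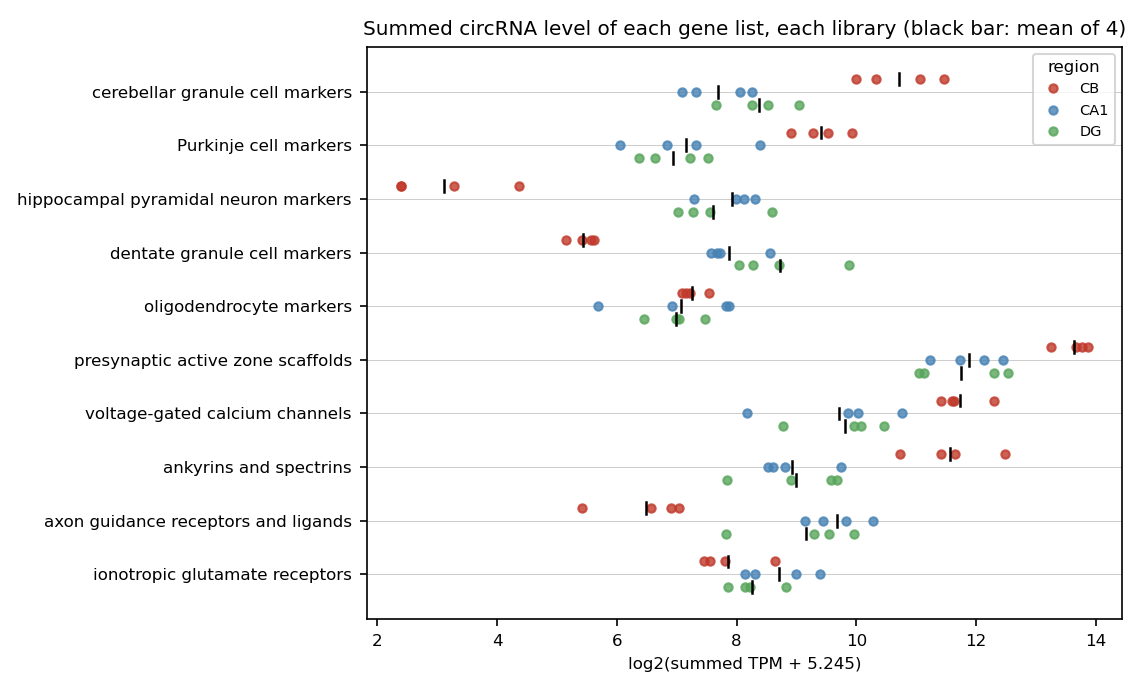
Points show the summed TPM of the circRNAs of each gene list in each of the 12 libraries, as log2(summed TPM + 5.245), with CB in red, CA1 in blue and DG in green and black bars for the mean of 4. CB lies above both hippocampal fields for granule cell and Purkinje markers, active zone scaffolds, calcium channels and ankyrins and spectrins, below them for pyramidal and dentate markers and axon guidance genes, and among them for oligodendrocyte markers. For ionotropic glutamate receptors CB_10F lies among the hippocampal libraries and the other CB libraries below them. Single genes gave most of some sums in CB: CACNA1A 2553 to 4905 of 2723 to 5055 TPM for calcium channels, and ANK1 1451 to 5092 of 1699 to 5710 for ankyrins and spectrins. PPFIA2 gave 23.9 to 37.4 of the 30.4 to 44.0 TPM for dentate markers in CB. Over calcium channel host genes the median log2 difference was -0.23.

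The machinery of transmitter release moved in both directions. Of 53 tested circRNAs of presynaptic active zone scaffolds, 10 were higher in CB and 2 lower, with a median of 0.85. The 10 came from RIMS1 with 5, CADPS2 with 4 and RIMS2 with 1, and the 2 lower ones from ERC2 and RIMBP2. As host sums, 2 of the 15 genes tested were higher and 3 lower, with a median of 0.79. RIMBP2, which links RIM to calcium channels, had an intronic circle (chr11:131689765-131690478) at 0 in all CB libraries and at 12.2 to 205 TPM in the hippocampus, at least 4.08-fold lower in CB (limma adjusted p = 0.0134). The RIMBP2 call did not pass against CA1 alone (0.107) or without the 10M, 20F or 20M pool. The summed level of the list was 9760 to 14910 TPM in CB against 2116 to 5902, of which RIMS1 gave 9043 to 13248 in CB.

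Calcium channel genes had 16 tested circRNAs, 2 higher and 1 lower in CB, with a median of 0.90. The higher ones were those of CACNA1A, and the lower one was an intronic circle of the auxiliary subunit CACNB2 (chr9:18444043-18480217), found in 1 CB library at 3.26 TPM and at 0 to 214 TPM in the hippocampus (difference -3.20, limma adjusted p = 0.0207). CACNB2 overlapped between the groups, and its call did not pass without CB_10F, CB_10M, CB_20M or DG_20M. CACNA1C, the pore of an L-type channel, was lower as a host sum, at 0 in CB and at 12 to 118 TPM in the hippocampus (adjusted p = 0.0284).

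Glutamate receptors had few calls. Of the 4 tested circRNAs of metabotropic receptors, GRM4 was higher and GRM5 lower. Of 7 from ionotropic receptors none was called, with a median of -1.28, and of 11 from GABA receptors none, with a median of -0.26. Calmodulin-dependent kinases had 0 calls among 10, with a median of -0.88 and 1 positive difference. Among their host sums 1 passed in each direction, CAMK2A as above and CAMKK2, an upstream kinase of this family, with 150, 54.1, 29.3 and 30.8 TPM in CB against at most 8.21 (difference 3.30, limma adjusted p = 0.00447).

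Axon guidance genes had 8 tested circRNAs, none with a positive difference, a median of -1.0 and 1 call, that of ROBO2. Their summed level was 37.4, 126, 115 and 90.2 TPM in CB and 222 to 1241 in the hippocampus, with no overlap. Synaptic adhesion molecules had 1 call in 15, an exonic circle of MDGA1 (chr4:37431099-37433325) with 48.1 to 150 TPM in CB and none found in the hippocampus, at least 9.29-fold higher (limma adjusted p = 0.00078). Growth factor receptors had 1 call in 13, from FGFR1 (chr8:38917171-38917349), with 187, 34.6, 21.7 and 44.0 TPM in CB and none found in the hippocampus, at least 7.77-fold higher (adjusted p = 0.00412). That bound rests on the CB mean of 71.9 TPM, which CB_10F raised. The FGFR1 call did not pass against DG alone (limma adjusted p = 0.0624) or without the 20M pool (0.0548). Of 14 circRNAs from regulators of circularization and TNRC6 proteins, 1 was called, the TNRC6A circle whose primers are shown above. TNRC6A acts in gene silencing by microRNAs, and its intronic circle had 74.9, 25.6, 34.8 and 33.0 TPM in CB and none found in the hippocampus, at least 4.55-fold higher (adjusted p = 0.00867). Genes of calcium release and second messengers had 1 call in 29, the INPP5A circle, a share of 3.45% near the 2.78% over all circRNAs tested. Single calls in lists this small describe the circle and not the family.

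The study listed 6 circRNAs for CB and 6 for CA1 or DG as candidates, chosen on these libraries, so their counts are a description. The 6 listed for CB, from RIMS1, ANK1, TRIM72, ATP9B, TNRC6A and MCTP1, were all called higher in CB. The MCTP1 call (chr6:91133100-91155536) did not pass with CA1 and DG averaged per pool (limma adjusted p = 0.061), and neither it nor the TNRC6A call passed against CA1 alone (0.161 and 0.0829) or DG alone (0.218 and 0.112). Of the 6 listed for CA1 or DG, 1 was called lower, an intergenic circle at chr15:55941729-55943892 with 0 to 19.5 TPM in CB and 0 to 338 in the hippocampus (difference -2.95, limma adjusted p = 0.035), and its call did not pass without CB_10F, CB_20F, CB_20M, any CA1 library or DG_10M. PPFIA2, MAP3K7, ERC1, IPO9 and TAX1BP1 had differences of -2.38, -0.30, -1.09, -1.01 and -0.76 that did not pass.

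Neocortical levels were set beside these calls as a description. The neocortical mean was nearer the hippocampal than the CB mean, on the log2(TPM + 5.245) scale, for 122 of the 139 higher circRNAs (87.8%) and 66 of the 71 lower ones (93.0%), and for 65.0% of all circRNAs tested. The calls were made on the difference between CB and hippocampus, and nothing is read from the gap. The neocortical median was 0 for 61 of the 139 and for 1 of the 71. KIAA0802, above, was an exception among the leading higher circRNAs.

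The most abundant circRNAs, ranked by the mean share of back-splice reads and chosen after the values were seen, differed between the regions in part. Of the 10 leading circRNAs of each, 3 were shared, from CEP112, WDR41 and YAF2. The other 7 of CB, from RIMS1 (2), KIAA0802, SMARCA5, CACNA1A, ANK1 and PHF21A, were all called higher. Of the 10 leading circRNAs of the hippocampus, only that of TBCEL was called lower. The CEP112 circle (chr16:61151204-61159165) took 1.00% ± 0.252 (SD, n = 4) of reads in CB and 1.35% ± 0.563 (SD, n = 8) in the hippocampus, with a difference in TPM of -0.05 on the log2 scale (limma adjusted p = 0.97).

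The kinds of circRNA also differed in their share of reads. Intergenic circRNAs took 11.9, 11.3, 11.4 and 11.8% of the back-splice reads in CB and 13.2 to 16.4% in the hippocampus, median 15.1. Exonic circRNAs took 79.2 to 80.0% in CB and 76.3 to 79.0% in the hippocampus, and intronic ones 8.62 to 9.01% and 6.63 to 8.57%. These 3 shares sum to the whole library and are not independent. CircRNAs whose ends lay 50 kb or more apart took 2.97 to 3.86% in CB and 4.21 to 7.63% in the hippocampus. In all 4 measures the 4 CB libraries did not overlap the 8 hippocampal ones. Each had a two-sided exact permutation p = 0.00404 and an adjusted p = 0.00606 over 6 measures. That p is the smallest possible when all libraries are exchanged freely, which ignores that CB, CA1 and DG share pools. Permutation within pools only, which keeps the pairing, can give no two-sided exact p under 0.0247. The 10 most abundant circRNAs of a library took 11.7 to 13.4% in CB and 8.33 to 13.5% in the hippocampus, with overlap (exact permutation adjusted p = 0.0533). At 18813 reads per library, the depth of the shallowest, 2328 ± 52.7 (SD, n = 4) circRNAs with at least 2 reads were expected in CB and 2471 ± 181 (SD, n = 8) in the hippocampus, a difference of -143 that did not pass the threshold (exact permutation adjusted p = 0.117).

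**Figure D5:**
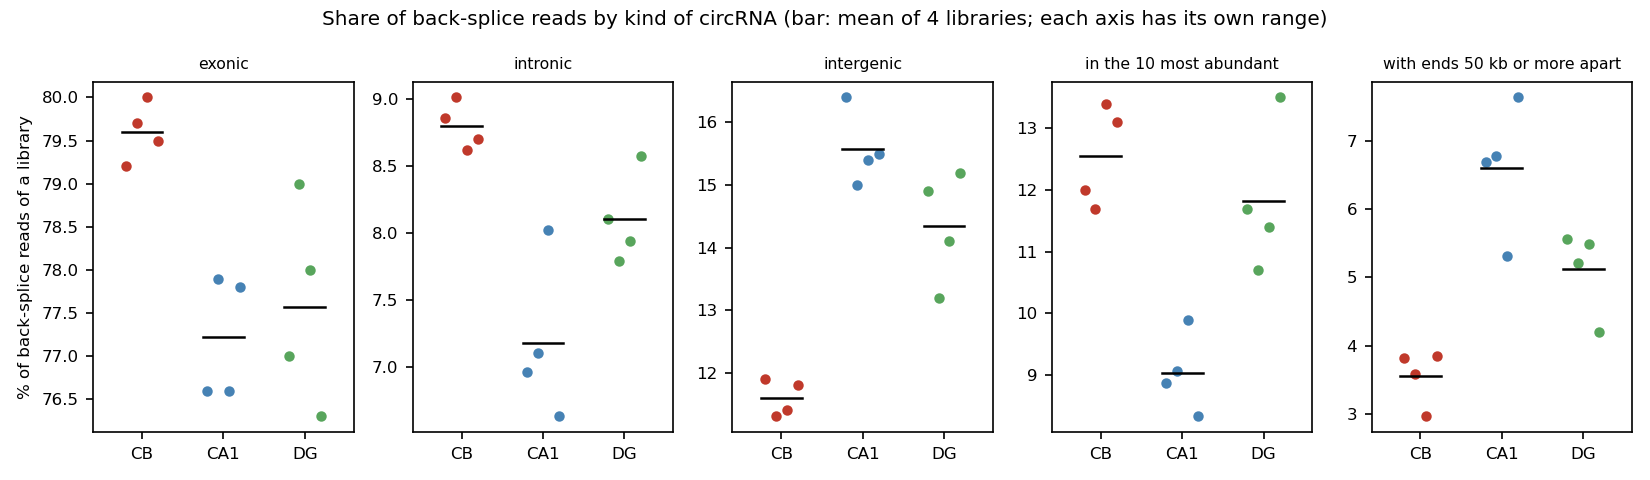
Each panel shows the percentage of a library's back-splice reads from 1 kind of circRNA, with a point per library and a bar for the mean of 4 in CB, CA1 and DG, and each vertical axis has its own range and does not start at 0. CB lies above all hippocampal libraries for exonic and intronic circRNAs and below them for intergenic ones (11.3 to 11.9%) and for those with ends 50 kb or more apart (2.97 to 3.86%), and it overlaps DG in the share of the 10 most abundant.

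The difference between CB and hippocampus was also compared between ages and between sexes, where each cell of the fit held 2 CB and 4 hippocampal libraries. For age, limma called 0 of 4999 circRNAs at an adjusted p under 0.05 (smallest 0.272), with 209 at an unadjusted p under 0.05, and voom weights on recovered reads also called 0. For sex, 2 were called with 181 at an unadjusted p under 0.05. The CFLAR circle (chr12:64893832-64898485), from a regulator of apoptosis, had a CB difference of 2.17 in females and -3.62 in males, with 0 in CB_20M beside 1422 TPM in CB_10M, and 0 in DG_10F beside 1271 TPM in CA1_10F. The SDF4 circle (chr1:4296700-4297391), from a calcium-binding protein of the Golgi, was at 131 and 150 TPM in CB of the females and at 0 in CB of both male pools, with 136 to 349 TPM in the male hippocampus. Both had a limma adjusted p = 0.0161 for the interaction.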

How the data were processed

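After capture of polyadenylated RNA, removal of ribosomal RNA and RNase R digestion, the authors trimmed reads with Cutadapt, aligned them with BWA to a macaque genome whose build is not given in the sources used here, and called circRNAs with CIRI2 from 2 or more back-splice reads per library, without stated versions. The deposited values are in TPM as the authors name them, and their methods state a DESeq normalization. Each was read as whole back-splice reads times a constant per library (100% of values whole within 0.1 read, with the smallest value standing for 2 reads). The total TPM differed between libraries, so levels are relative.

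The methods' expression filter, applied to recovered reads with at least 3 as expressed, kept 17050 of 52828 circRNAs, and 4999 of these were above 0 in at least 4 of the 12 libraries. Groups were taken from the region in the labels. CB was compared with CA1 and DG by limma 3.58.1 (R 4.3.3, eBayes with trend) on log2(TPM + 5.245), the pseudocount being the median of the libraries' smallest values above 0. A fold change on this scale understates the change of low circRNAs. The prior degrees of freedom were estimated as infinite, so p-values rest on the spread shared by circRNAs of like level. Host genes were tested on summed TPM. Library measures were tested by exact two-sided permutation. A group at 0 was set to 3 reads per library, averaged over the group, for lower bounds. The other group entered as its mean, and the spread of that mean is not part of the bound. Symbols are those of the table, with 104 tested circRNAs named from the supplied gene names and 63 left as gene IDs. Tests were also run on simulated reads, whose depths and mean levels were taken from these libraries after the main fit. Other software was Python 3.11.15, NumPy 2.4.6, pandas 2.3.3, SciPy 1.17.1 and Matplotlib 3.10.9.

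Pools pair the libraries, since the libraries of a pool come from the same 2 animals. Residuals of libraries of the same pool correlated by -0.03 to 0.09, against -0.07 to 0.07 for different pools, and alternatives fitted the pool as a block. The labels do not give replicates beyond pools, and CA1 and DG of a pool share animals. The main fit took all libraries as separate and used a spread shared by circRNAs of like level. Its p-values therefore do not measure a circRNA's own spread between pools.

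Named circRNAs were, in each direction, the 12 with the smallest p among those called whose CB library was on the same side of CA1 and DG in all 4 pools, 1 per host gene with a symbol. The 2 intergenic ones with the smallest p under that rule, up to 2 calls per list and direction, the 5 leading host genes and the study's primer candidates for CB, CA1 and DG were added. The comparison, the members and the lists were chosen with earlier results of these data known. RT-qPCR, blots and host messenger RNA were not analysed here.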

Additional observations from a re-analysis of the deposited data

Results flagged for a closer look

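Within regions of 4 libraries each, 189 groups of values were examined for a library set apart from the other 3 by Dixon's criterion on log2(TPM + 5.245), and 29 were found, where chance gives about 1 in 20. In many of these the other 3 libraries were at 0, so the flag records that a circRNA was found in a single library of a region. In CB these were DPYD (9.02 TPM in CB_10M, also as a host sum), ERC2 (2.17 in CB_20F, 5.43 as a host sum), the intergenic circle at chr5:140041447-140041677 (13.0 in CB_20F), SPC24 (12 in CB_10M), ANKS1B (17.6 in CB_20M), CACNB2 (3.26 in CB_20F) and the C6ORF142 host sum (9.78 in CB_20F). In the hippocampus they were TRIM72 (26.7 TPM in DG_20F, also as a host sum), the intergenic circle at chr6:19994802-20035223 (9.09 in DG_10M), PIK3R3 (12 in DG_10F), PLA2R1 (50.9 in CA1_10M), MCTP1 (2.02 in CA1_20M and 18.2 in DG_10M) and TAX1BP1 (15 in CA1_20M).

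Libraries set apart at a low value were CB_20F for COL11A1 (5.43 TPM, as circRNA and as host sum), CA1_20M for the intergenic circle at chr6:146707952-146711102 (190 TPM) and for CACNA1A (0), CA1_10M for ATP9B (0), and CB_10F for FAF1 and MAP3K7 (both 0). Libraries set apart at a high value were CB_10F for TBCEL (711 TPM), CA1_20M for COL11A1 (1624 TPM, 1660 as a host sum) and DG_20M for COL11A1 (3510 TPM, 3576 as a host sum). Both COL11A1 values come from the 20M pool, which also had the deepest hippocampal libraries, and the part of depth in them was not tested.

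The CB difference of 2 circRNAs depended on sex by limma's interaction term, by -5.79 for CFLAR and -8.02 for SDF4 (males minus females, log2 scale, adjusted p = 0.0161 for both).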

How the results depend on the processing

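The pool as a fixed replicate block gave 151 circRNAs higher and 77 lower in CB, and 146 and 74 as a correlation within pools, against 139 and 71 without the pairing, and changed no named call other than PPFIA2, which passed with the fixed block (limma adjusted p = 0.0432). Permutation within pools kept every library measure on its side of the threshold. Among circRNAs above 0 in at least 8 of 12 libraries 37 were higher and 53 lower, at the common limit of 37.44 TPM 44 and 11 lower, against CA1 alone 55 higher, against DG alone 47 and 26, without CA1_20M and DG_20M 76 and 44, with the methods' filter only 88 and 42, and with no filter 76 and 26. Each circRNA's own spread, added after seeing the data, gave 119 higher and 42 lower. It kept 92 of the 139 higher and 34 of the 71 lower calls. For host genes, 69 held more with a pseudocount of 1 TPM, 36 above 0 in at least 8 of 12 libraries (52 less), 51 at the common limit (20 less), 56 against CA1 alone, 43 against DG alone (26 less), and own spread gave 40 with less. Leaving out 1 library or 1 pool gave 33 to 176 circRNAs higher and 30 to 70 lower, and 47 to 107 host genes with more and 35 to 71 with less.

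The share of the 10 most abundant passed without CA1_20M and DG_20M (difference 2.3 percentage points), with the methods' filter (2.44) and with CA1 and DG averaged per pool (2.14), and ran from 1.84 to 2.58 without 1 library, passing without DG_10F (2.33) or DG_20M (2.58). The difference in the expected number of circRNAs ran from -173, without DG_10F, where it passed, to -97. For sex, 1 circRNA was called with a pseudocount of 10 TPM, with the pool as replicate block, and with voom weights on size factors, the last chosen after seeing the data.

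Of 52 named calls, 26 held under every alternative run for them and none reversed, while 11 did not pass without the 20M pool and 21 at the common limit. These 21 were all circRNAs, among them those of ZNF521, ERC2, GRM5, SPC24, MDGA1, GRM4, FGFR1, ANKS1B and CSMD1. The 52 also count the leading host sums, which mostly repeat the circles and had fewer alternatives. Of the host sums only that of C6ORF142 was lost in any, so circRNA calls alone held less often. The exact permutation test over libraries, for each circRNA, called 0 after adjustment (smallest 0.107), with 666 at an unadjusted p under 0.05, against 840 by limma. Voom weights with size factors on recovered reads, added after seeing the data, gave 150 circRNAs higher and 77 lower. They kept 109 of the 139 higher and 48 of the 71 lower calls. The C6ORF142 host sum did not pass with them (limma adjusted p = 0.0664). The count models edgeR, DESeq2 and voom with TMM were not run. The causes were not tested. In CB_10F, the shallowest library, 84.5% of the lower calls and 67.6% of all circRNAs tested were at 0, and the part of depth was not tested.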
